A study of Saccharomyces cerevisiae with 12 samples.

Results

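The 5 spliceosomal small nuclear RNAs (snRNAs) of budding yeast, the telomerase RNA TLC1, the signal recognition particle RNA SCR1 and the RNAs of RNase P and RNase MRP (RPR1 and NME1) were followed through a cell fractionation. The annotation lists 6 snRNA features, because U5 has a long and a short form, and the 4 other RNAs make 10 of its 20619 features. U1 is annotated as snR19, U2 as LSR1, U4 as snR14, U5 as snR7-L and snR7-S and U6 as snR6. Both U5 forms share the same reading, so 9 readings were compared.

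The 12 libraries, 3 in each of 4 groups, were made from Saccharomyces cerevisiae labelled BY4741. The wild-type and the mex67-5 xpo1-1 double mutant (called mutant here) were each sampled as total RNA and as cytoplasmic RNA, and all cultures had spent 1 h at 37 °C, so the wild-type carries the heat shift as well. In the mutant both chromosomal genes are disrupted and the temperature-sensitive alleles are supplied on plasmids. The study's strain list names BY4741 for the wild-type and gives the mutant as a strain from earlier work without naming its background. Strain background and mutations therefore cannot be told apart in the comparisons between strains. The cytoplasm is the supernatant of lysed spheroplasts after a low-speed spin, and no nuclear fraction was sequenced, so each cytoplasmic library was set against total RNA. The labels do not say how the 3 libraries of a group were replicated, while the study describes the samples as biologically independent.

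The snRNAs are the RNA cores of the spliceosome. U1 pairs with the 5′ splice site, U2 with the branch site, U5 holds the exon ends, and U6 is delivered by U4 and forms the catalytic centre with U2. U1, U2, U4, U5 and TLC1 are made by RNA polymerase II and bind the Sm protein ring, whereas U6 is made by RNA polymerase III and binds Lsm proteins. In yeast the polymerase II snRNAs and TLC1 are known to leave the nucleus with Mex67 and Xpo1, the 2 export receptors disabled in the mutant, and to return after maturation. SCR1 works in the cytoplasm, where the signal recognition particle brings ribosomes that make secreted proteins to the endoplasmic reticulum. RPR1 belongs to RNase P, which trims the 5′ ends of precursor tRNAs, and NME1 to RNase MRP, which cuts precursor ribosomal RNA.

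The stretches below are shown because they identify the RNAs that the readings stand for. They are reference sequences of the R64 (sacCer3) genome from RefSeq, written 5′ to 3′ as RNA. Capitals mark the bases of U1 that pair with the 5′ splice site, those of U2 that pair with the branch site, the U-rich loop of U5, the ACAGAGA box of U6, and 16 bases of the TLC1 template region.
U1 (snR19), chrXIV:230633-230672, minus strand: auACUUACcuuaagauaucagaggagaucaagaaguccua
U2 (LSR1), chrII:681803-681862, minus strand: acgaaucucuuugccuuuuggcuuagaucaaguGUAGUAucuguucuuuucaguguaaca
U5 long form (snR7-L), chrVII:939459-939672, minus strand: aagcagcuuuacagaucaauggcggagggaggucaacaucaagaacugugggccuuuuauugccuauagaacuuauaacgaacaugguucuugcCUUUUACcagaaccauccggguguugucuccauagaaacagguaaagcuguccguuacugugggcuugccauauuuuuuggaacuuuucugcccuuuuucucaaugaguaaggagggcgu
U6 (snR6), chrXII:366235-366346, plus strand: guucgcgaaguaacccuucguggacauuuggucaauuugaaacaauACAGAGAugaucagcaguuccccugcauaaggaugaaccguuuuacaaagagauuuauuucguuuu
TLC1, chrII:308034-308089, plus strand: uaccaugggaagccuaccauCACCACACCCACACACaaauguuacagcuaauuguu

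The Sm ring assembles on a short U-rich stretch. The next 5 sequences each show 1 match to a motif of that kind. They come from the RNAs called lower in the mutant cytoplasm and from U5, which was not called there. The motif searched was AUUUUUG or AUUUUUUG on the RNA's own strand. The spellings cannot overlap each other in 1 stretch. Capitals mark the match. U1, U2 and TLC1 held further matches, and the one shown starts at base 553 in U1, 112 in U2 and 1153 in TLC1.
U1 (snR19), chrXIV:230105-230135, minus strand: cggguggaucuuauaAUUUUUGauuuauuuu
U2 (LSR1), chrII:681729-681766, minus strand: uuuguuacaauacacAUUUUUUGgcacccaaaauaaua
U4 (snR14), chrV:167427-167458, minus strand: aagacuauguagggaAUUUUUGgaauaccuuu
U5 long form (snR7-L), chrVII:939484-939521, minus strand: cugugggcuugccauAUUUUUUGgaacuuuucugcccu
TLC1, chrII:308724-308760, plus strand: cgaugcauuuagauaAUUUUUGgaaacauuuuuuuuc

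U4 and U5 held 1 match each, U2 held 2, U1 held 3 and TLC1 held 4, whereas U6, SCR1, NME1 and RPR1 held none. Genome windows of the length of U4 (160 bases) held a match on 1 strand in 5.49% of cases, and windows of the length of TLC1 (1301 bases) in 36.7%, so a match in the long RNAs is common by length alone. A match is a description of the letters and not of a bound site.

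Reads of these libraries fell on the strand opposite to the annotated RNA. Each RNA was therefore read from the annotated feature on the opposite strand that covers at least 50% of it, with the count of its own feature beside it. U5 and NME1 were read from features with exactly their ends. The U6 reading covered the 56 bases at its 5′ end, 50% of the RNA, that of RPR1 54.5%, that of U2 76.9% and that of TLC1 78.7%, while SCR1 was covered whole. The U1 reading covered 69.9% of U1, but only 10.7% of its 3697 bases lie in U1, and most of the rest runs along POP1, a protein gene of RNase P and MRP. The U4 reading covered all of U4, but only 19.4% of its 825 bases lie in U4, and it also overlaps SEC3, an exocyst gene. Values given for U1 and U4 are therefore values of these longer features. The U2 feature has 76.3% of its 1185 bases in U2 and also overlaps SWC5. The SCR1 feature has 89.7% of its 582 bases in SCR1 and overlaps YER137W-A. How much these genes add to the counts was not tested.

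The kit used prepares polyadenylated RNA, and mature forms of most of these RNAs carry no long poly(A) tail. Which share of each RNA entered the libraries was not tested. Totals were 24532091 to 37361004 counts per library. The 9 readings held 4.40 to 6.86% of the counts in wild-type total RNA, 1.85 to 2.25% in wild-type cytoplasm, 5.78 to 7.87% in mutant total RNA and 2.52 to 3.06% in mutant cytoplasm. Mitochondrially encoded transcripts, from an organelle that can be carried along, took 4.34 to 6.18%, 2.32 to 2.70%, 9.47 to 14.3% and 3.31 to 6.41% in the same order. Their part in the results below was not tested.

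The levels spanned a wide range. Levels are given as CPM, the count of a feature per 1000000 counts of its library, on library sizes scaled by TMM factors, and for comparisons between RNAs as CPM per kilobase of the feature read. In wild-type total RNA, SCR1 was the most abundant at 74144 ± 22158 CPM per kilobase (SD, n = 3), followed by U2 at 13002 ± 1763 and U5 at 4706 ± 486. RPR1 at 2962 ± 432 and NME1 at 2330 ± 418 CPM per kilobase did not differ beyond their SDs. U1 followed at 1382 ± 28.4, TLC1 at 417 ± 19.9, U6 at 155 ± 46.6 and U4 at 52.4 ± 5.79, where the features read for U1 and U4 run far beyond the RNA. In wild-type cytoplasm the order changed: RPR1 (584 ± 115 CPM per kilobase) stood above U5 (376 ± 102), and NME1 (166 ± 29.3) was level with TLC1 (172 ± 28.5). The SDs of neighbours overlapped in this fraction for RPR1 and U5, U5 and U1, TLC1 and NME1, and U6 and U4. In mutant total RNA, RPR1 (4841 ± 633 CPM per kilobase) and U5 (4568 ± 979) did not differ beyond their SDs, nor did U6 and U4, and in mutant cytoplasm U5 and U1, and U6 and U4, did not.

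**Figure D1:**
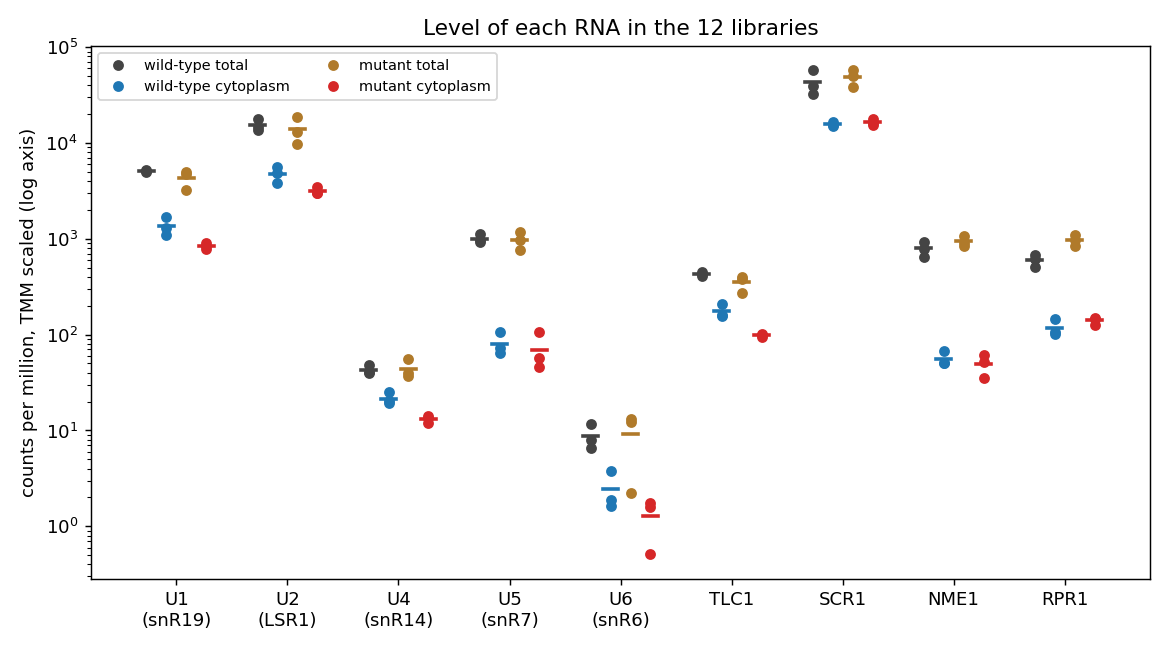
Level of each RNA in CPM (log axis), with 1 point per library and a bar at the mean of each group of 3. For all 9 RNAs the cytoplasmic points of a strain lie below its total points, and SCR1 is the highest in every group.

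The first comparison asks how much of each RNA stood in the cytoplasm of wild-type cells relative to total RNA. All 9 RNAs were lower in the cytoplasm, with no overlap between the groups for any of them. How many of all features had groups without overlap was not counted, here and in the later comparisons. NME1 and U5 were reduced most, RPR1, U1, U6 and U2 by an intermediate amount, and SCR1, TLC1 and U4 least. A lower CPM means a smaller share of the sequenced RNA, not a count of molecules per cell, and in bulk libraries fewer cells with an RNA and less RNA per cell cannot be told apart.

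NME1 stood at 652, 936 and 788 CPM in the wild-type total libraries and at 67.8, 51.1 and 50.1 CPM in the cytoplasmic libraries. It was 13.8-fold lower in the cytoplasm (log2 fold change −3.79, SE 0.20, adjusted p = 7.21e-05 by edgeR's quasi-likelihood test with Benjamini-Hochberg adjustment), the lowest log2 fold change of the 11976 features tested. U5 stood at 924, 1124 and 974 CPM in total RNA and at 72.0, 64.1 and 105 CPM in the cytoplasm. U5 was 12.3-fold lower, a log2 fold change of −3.62 (SE 0.21), rank 2 from the lowest. RPR1, the RNA of the sister enzyme of RNase MRP, stood at 502, 674 and 610 CPM against 144, 106 and 102 CPM. Its log2 fold change was −2.31 (SE 0.18), 4.97-fold lower.

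Among the other snRNAs, U1 stood at 5154, 5182 and 4988 CPM in total RNA and at 1695, 1087 and 1294 CPM in the cytoplasm, a log2 fold change of −1.88 (SE 0.17). U2 stood at 13678, 17729 and 14815 CPM against 5593, 4817 and 3819 CPM, a log2 fold change of −1.67 (SE 0.18). U6, the RNA with the fewest reads, stood at 7.93, 11.6 and 6.57 CPM against 3.80, 1.62 and 1.89 CPM. Its log2 fold change was −1.84 (SE 0.34), with the largest error of the 9. U4 stood at 40.2, 48.8 and 40.9 CPM in total RNA and at 25.0, 19.4 and 20.2 CPM in the cytoplasm. Its log2 fold change was −0.98 (SE 0.14), the smallest decrease.

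TLC1 stood at 428, 447 and 407 CPM in total RNA and at 161, 158 and 210 CPM in the cytoplasm, a log2 fold change of −1.25 (SE 0.14). SCR1 varied among the total libraries, at 32540, 57504 and 39411 CPM, and was even in the cytoplasm, at 15264, 16604 and 15194 CPM. Its log2 fold change was −1.43 (SE 0.22), although the signal recognition particle acts in the cytoplasm. As a percentage of the mean CPM in total RNA, the mean cytoplasmic CPM was 7.11% for NME1, 7.99% for U5, 19.7% for RPR1, 26.6% for U1, 28.0% for U6, 30.8% for U2, 36.4% for SCR1, 41.3% for TLC1 and 49.8% for U4. These percentages depend on the scaling of the libraries and are not the part of each RNA that lay in the cytoplasm.

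Over all features, 17.6% were called lower and 22.3% higher in this comparison, and the median over all features was 0.022 on the log2 scale, while that of the 9 RNAs was −1.84. Small nucleolar RNAs (snoRNAs), which guide ribosomal RNA modification in the nucleolus and serve here as nuclear RNAs, were lower for 38 and higher for 1 of the 60 distinct readings tested, with a median of −0.79. All 9 RNAs lay below this median. Features read for snoRNAs could also run beyond the snoRNA, lie in a protein gene or be shared by neighbouring snoRNAs. How far this moved the snoRNA medians, here and in the later comparisons, was not tested. Scaled to mitochondrial transcripts, 4 of the 9 were called lower, and U4 stood at 0.18. The median of all features was 1.15 under that scaling.

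The U1 and U4 values can be set beside other features at the same place. A shorter feature at the 3′ end of the U1 gene, which shares 122 of its 321 bases with U1, had 195.6 to 239 reads per base in wild-type total RNA against 35.5 to 42.5 for the longer one, and had a log2 fold change of −2.08 (SE 0.15). The U4 reading held 1.39 to 1.5 reads per base in wild-type total RNA. A longer feature that covers SEC3 held 1.03 to 1.21 reads per base. In the wild-type cytoplasm the U4 reading fell to 0.70 to 0.81 reads per base, while the SEC3 feature stood at 1.03 to 1.49 (log2 fold change 0.20, adjusted p = 0.17, edgeR). How much of the U4 reading comes from U4 itself was not tested.

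The same comparison in the mutant gave 9 of 9 RNAs lower, again with no overlap between total and cytoplasm. NME1 stood at 1082, 850 and 905 CPM in mutant total RNA and at 52.3, 61.5 and 35 CPM in mutant cytoplasm. It was 19.5-fold lower (log2 fold change −4.28, SE 0.24, adjusted p = 3.18e-05, edgeR), the lowest of 13763 features. U5 stood at 1191, 968 and 773 CPM against 57.5, 45.8 and 106 CPM, with a log2 fold change of −3.84 (SE 0.34). The third cytoplasmic library was the highest for U5 in both strains, at nearly the same level in each.

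TLC1 stood at 402, 378 and 274 CPM in mutant total RNA and at 94.3, 101 and 99.3 CPM in mutant cytoplasm, a log2 fold change of −1.87 (SE 0.17). U4 stood at 55.1, 39.7 and 37.0 CPM against 13.5, 14.0 and 11.9 CPM, a log2 fold change of −1.77 (SE 0.17). U1 stood at 4782, 4977 and 3245 CPM against 908, 837 and 780 CPM, a log2 fold change of −2.39 (SE 0.23). The cytoplasmic values of these RNAs lay close together, and most of the spread came from the total libraries.

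U2 stood at 18801, 13082 and 9773 CPM in mutant total RNA and at 3032, 3015 and 3430 CPM in the cytoplasm, a log2 fold change of −2.17 (SE 0.30). RPR1 stood at 1097, 979 and 843 CPM against 151, 145 and 126 CPM, a log2 fold change of −2.82 (SE 0.17). SCR1 stood at 57302, 49432 and 38257 CPM against 16126, 17734 and 15272 CPM, a log2 fold change of −1.59 (SE 0.31), the smallest decrease in this strain. U6 stood at 12.2, 13.2 and 2.22 CPM in total RNA and at 1.61, 1.77 and 0.510 CPM in the cytoplasm, so the third library was low in both fractions, and its log2 fold change of −2.84 carried an SE of 0.64.

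In the mutant the cytoplasmic CPM was 5.24% of the total CPM for NME1, 7.12% for U5, 14.0% for U6, 14.4% for RPR1, 19.4% for U1, 22.8% for U2, 28.0% for TLC1, 29.9% for U4 and 33.9% for SCR1. Of all features, 28.7% were called lower and 30.0% higher, the median over all features was −0.0066 on the log2 scale, and that of the 9 RNAs was −2.39. Of the 60 snoRNAs tested, 50 were lower, with a median of −1.61. The snoRNA median lay below the SCR1 value here and above the other 8. Scaled to mitochondrial transcripts, 4 of the 9 RNAs were called lower and SCR1 stood at 0.051, where the median of all features was 1.60.

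**Figure D2:**
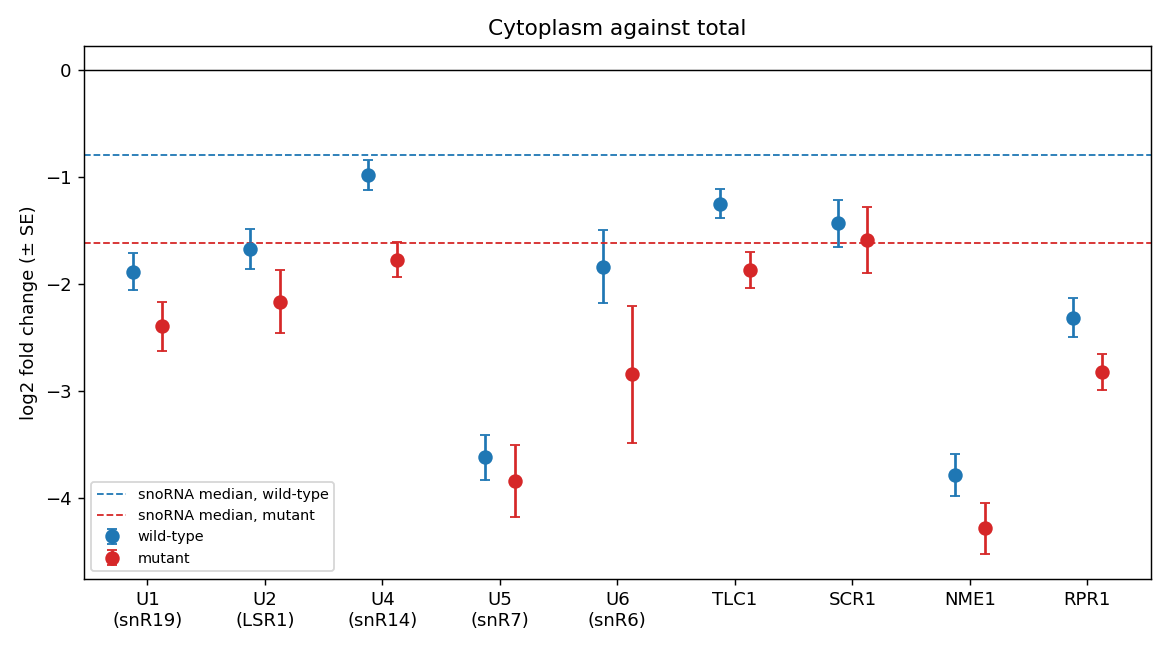
Log2 fold change of cytoplasm against total (± SE) for each RNA in wild-type and mutant, with filled points for calls at an adjusted p under 0.05 and dashed lines at the snoRNA medians of −0.79 and −1.61. All 18 points are filled and below 0, with NME1 and U5 the lowest in both strains.

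The next question is which RNAs changed in level between the strains. In total RNA, RPR1 was higher in the mutant and the other 8 were not called. RPR1 stood at 502, 674 and 610 CPM in the wild-type and at 1097, 979 and 843 CPM in the mutant, without overlap, a 1.65-fold rise (log2 fold change 0.73, SE 0.16, adjusted p = 0.0053, edgeR). Of all features 25.6% were lower and 26.9% higher in this comparison, so a call for 1 of 9 RNAs is below the background. NME1, the sister RNA, stood at 0.27 (SE 0.17) and SCR1 at 0.18 (SE 0.30) on the log2 scale. The log2 fold changes of the snRNAs ran from −0.22 for U1 to 0.095 for U6, and that of TLC1 was −0.27 (SE 0.16, adjusted p = 0.19). The TLC1 and U1 groups did not overlap, with the mutant lower in both, but the differences did not pass the test. Under scaling to mitochondrial transcripts RPR1 stood at −0.19, and 7 other RNAs were called lower, where the median of all features was −0.90.

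In the cytoplasm, 4 RNAs were lower in the mutant than in the wild-type: TLC1, U4, U1 and U2. Background calls were 28.9% lower and 32.3% higher over all features, with a median of 0.043. Of the 9 RNAs 4 were called lower, and whether that departs from the share over all features was not tested. All 4 are Sm-ring RNAs made by RNA polymerase II, and U5, the fifth of that class, was not called. The U4 and U1 calls are those of features with 19.4% and 10.7% of their bases in the RNA. For U4, a decrease of the RNA and one of the SEC3 transcript cannot be told apart. The decrease was not particular to the Sm-ring class. U6, which lies outside it, had the lowest value of the 9 at −0.86 without a call, and of 56 snoRNA readings 22 were lower and 3 higher.

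TLC1 stood at 161, 158 and 210 CPM in wild-type cytoplasm and at 94.3, 101 and 99.3 CPM in mutant cytoplasm. It was 1.78-fold lower (log2 fold change −0.83, SE 0.16, adjusted p = 0.0016, edgeR). A second feature opposite to TLC1, that of CSG2, which shares 228 of its 1713 bases with the 3′ end of TLC1, was 2.12-fold lower with an adjusted p of 1.62e-04 (edgeR). How much of the CSG2 feature's count comes from TLC1 was not tested.

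U4 stood at 25.0, 19.4 and 20.2 CPM in the wild-type and at 13.5, 14.0 and 11.9 CPM in the mutant cytoplasm, 1.62-fold lower (log2 fold change −0.70, SE 0.15, adjusted p = 0.0035, edgeR). The SEC3 feature that runs along it changed by −0.74 (SE 0.14), so a U4 decrease and a decrease of the SEC3 transcript cannot be told apart here. U1 stood at 1695, 1087 and 1294 CPM against 908, 837 and 780 CPM, 1.60-fold lower (log2 fold change −0.67, SE 0.19, adjusted p = 0.013, edgeR). The shorter U1 feature gave −0.88 (SE 0.19). U2 stood at 5593, 4817 and 3819 CPM against 3032, 3015 and 3430 CPM, 1.48-fold lower (log2 fold change −0.57, SE 0.19, adjusted p = 0.026, edgeR). The U2 call was lost when wild-type cytoplasm 1 or 2 or mutant cytoplasm 1 or 2 was left out, with adjusted p-values of 0.093, 0.052, 0.10 and 0.082 (edgeR). A second feature opposite to U2, which shares 222 of its 645 bases with it, stood at −0.47 (SE 0.19, adjusted p = 0.054, edgeR) with overlapping groups.

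The other 5 RNAs overlapped between the cytoplasms. U6 had the lowest value, −0.86, with an SE of 0.46 and an adjusted p of 0.13 (edgeR). It was called lower with TMM factors from protein-coding features (−1.16) and with mitochondrial scaling (−1.53), where U2 at −1.04 missed the threshold with an adjusted p of 0.056 (edgeR). U5 stood at −0.20 (SE 0.30), and without mutant cytoplasm 3 at −0.62 with an adjusted p of 0.0498 (edgeR). NME1 stood at −0.17 (SE 0.22), SCR1 at 0.079 (SE 0.18) and RPR1 at 0.28 (SE 0.17, adjusted p = 0.19). Without wild-type cytoplasm 1, RPR1 was called higher at 0.43 (adjusted p = 0.035, edgeR). In the same comparison 22 of 56 snoRNAs were lower and 3 higher, with a median of −0.46, against −0.57 for the 9 RNAs.

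Scaled to library totals in place of TMM factors, the median of all features in the cytoplasm comparison was 0.57 and none of the 4 RNAs was called. TLC1 then stood at −0.29, U4 at −0.16, U1 at −0.13 and U2 at −0.045, and RPR1 (0.81) and SCR1 (0.61) were called higher.

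**Figure D3:**
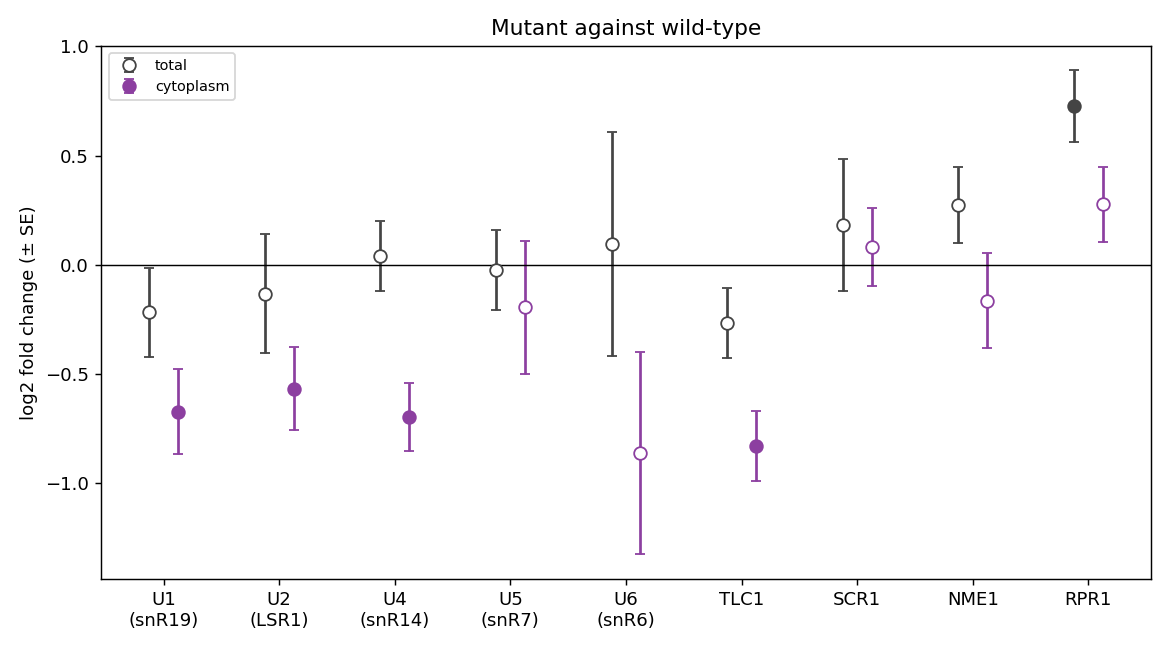
Log2 fold change of mutant against wild-type (± SE) in total RNA and in cytoplasm, with filled points for calls at an adjusted p under 0.05. TLC1, U4, U1 and U2 are filled and below 0 in the cytoplasm, and RPR1 is filled and above 0 in total RNA.

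The ratio of cytoplasm to total was then compared between strains in 1 fit of all 12 libraries. None of the 9 RNAs passed the test by edgeR, 2 had an unadjusted p under 0.05 (U4 and TLC1), and DESeq2 called 1 (U4, adjusted p = 0.038). Over all features 5.68% were called lower and 4.57% higher. All 9 values were below 0, from −0.10 for SCR1 to −0.95 for U6, with a median of −0.45, but SCR1 and U5 were above 0 when scaled to library totals, and these and U2 when scaled to mitochondrial transcripts. The median of all features was itself −0.10, and that of the 60 snoRNAs tested was −0.60, of which 3 were called lower.

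U4 had a change of the ratio of −0.74 on the log2 scale (SE 0.23, adjusted p = 0.055, edgeR) and TLC1 of −0.56 (SE 0.22, adjusted p = 0.13). The SEC3 feature stood at −0.37 (SE 0.15). U4 was called without wild-type cytoplasm 2 and without mutant total 3, with adjusted p-values of 0.039 and 0.049 (edgeR). U1 stood at −0.45 (SE 0.28), RPR1 at −0.45 (SE 0.24), NME1 at −0.44 (SE 0.30) and U2 at −0.44 (SE 0.33). U5 at −0.17 (SE 0.39) and SCR1 at −0.10 (SE 0.33) were nearest to the median of all features, and U6 had an SE of 0.81. Apart from U4 and TLC1 each value lay within 2 SEs of 0.

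The own features of the RNAs hold the reads of the strand that does not carry the RNA, and they behaved differently between RNAs. For SCR1 they made up 0.0286 to 0.121% of the opposite-strand count over the 12 libraries, for U1 0.0613 to 0.347% and for U2 0.191 to 0.661%. The lowest of each of these ranges was in mutant total 2. For NME1 they rose from 0.0548 to 0.116% in wild-type total RNA to 7.73 to 14.0% in mutant cytoplasm. The U6 own feature had 0.340 to 0.543% in wild-type total RNA, up to 12.5% in wild-type cytoplasm, 1.18 to 15.5% in mutant total RNA and 14.3 to 35.3% in mutant cytoplasm. It held 14, 10 and 6 counts in mutant cytoplasm, beside 55, 70 and 17 for the opposite strand, and was too low to be tested.

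The NME1 own feature held 23, 13 and 15 counts in wild-type total RNA, 9, 33 and 23 in wild-type cytoplasm, 70, 66 and 108 in mutant total RNA, and 138, 195 and 163 in mutant cytoplasm. It was higher in the mutant in total RNA (log2 fold change 2.0, SE 0.25) and in cytoplasm (2.67, SE 0.30, adjusted p = 8.34e-05, edgeR), and higher in the mutant cytoplasm than in mutant total RNA (0.91, SE 0.19). NME1 itself was not called between strains and fell in the cytoplasm, so both strands of this gene gave opposite directions in the mutant fractions.

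The RPR1 own feature held 33, 14 and 35 counts in wild-type total RNA and 12, 27 and 16 in wild-type cytoplasm, against 84, 68 and 95 and 76, 118 and 74 in the mutant. Its log2 fold change between strains was 1.36 (SE 0.28) in total RNA and 2.0 (SE 0.29) in cytoplasm, and both were called. The TLC1 own feature held 102, 70 and 92 counts in wild-type total RNA and 175, 146 and 189 in mutant total RNA, and was higher in the mutant by 0.72 (SE 0.17, adjusted p = 0.0060, edgeR). In the cytoplasm it held 91, 196 and 92 counts in the wild-type and 232, 296 and 167 in the mutant, with a log2 fold change of 0.61 (SE 0.25, adjusted p = 0.055). These features count few reads, and they were compared on the same scale as the RNAs. Such rises were not particular to these RNAs. Of the snoRNA own features tested between the cytoplasms, 9 of 15 were higher in the mutant and 2 lower, with a median of 1.61. Between the total libraries 8 of 17 were higher and 1 lower, with a median of 0.47. Over all features 32.3% and 26.9% were higher and 28.9% and 25.6% lower, in the same order.

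**Figure D4:**
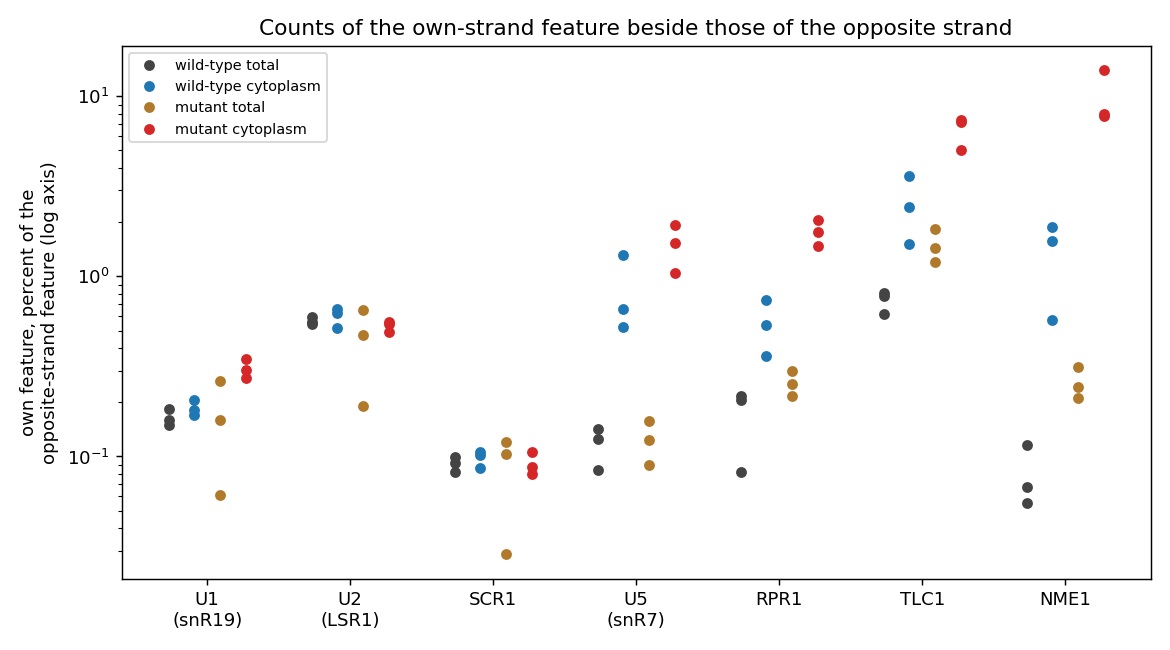
Count of the own-strand feature as a percentage of the opposite-strand count (log axis), with 1 point per library, for the RNAs other than U4 and U6, which are not plotted. SCR1, U1 and U2 stay below 1% in all groups, whereas NME1 reaches 7.73 to 14.0% and TLC1 5.04 to 7.39% in mutant cytoplasm.

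Genes for the protein partners and the processing and transport factors of these RNAs were also read from the opposite strand, by a stricter rule. The feature had to cover at least 0.5 of the gene, with at least 0.8 of its own length inside it. It could overlap no other gene on the gene's strand, and 40 of 95 genes could be read. In the wild-type cytoplasm against total, 13 were lower and 5 higher with a median of −0.16, against 17.6% lower and 22.3% higher over all features. In the mutant 20 were lower and 6 higher with a median of −0.41, against 28.7% and 30.0% over all features. CBC2, a subunit of the nuclear cap-binding complex, was lower in the cytoplasm in both strains, at −0.69 (SE 0.11) and −1.05 (SE 0.12). Between the strains, 16 were lower and 4 higher in total RNA, where 25.6% of all features were lower and 26.9% higher. In cytoplasm 21 were lower and 6 higher.

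Over all features, 28.9% were lower and 32.3% higher in mutant than in wild-type cytoplasm, and the counts of the small lists that follow stand beside these shares. The Sm and Lsm protein genes were lower in the mutant cytoplasm for 6 of the 7 read. Among them were SMX3 at −1.43 (SE 0.17) and SME1 at −1.07 (SE 0.18), which encode proteins of the Sm ring, and LSM5 at −0.62 (SE 0.14) and LSM8 at −0.78 (SE 0.24), which encode proteins of the ring on U6. Of the 4 signal recognition particle and receptor genes read, 3 were lower there, with SRP54, the subunit that binds signal sequences, at −0.82 (SE 0.16). Of the 5 RNase P and MRP genes read, SNM1 (1.01, SE 0.14) and POP7 (0.94, SE 0.16) were higher and POP6 (−1.49, SE 0.35) and POP3 (−0.85, SE 0.22) lower. Of the 5 telomerase genes read, EST2, the reverse transcriptase, and CDC13, which binds telomere ends, were higher at 0.56 (SE 0.19) and 0.54 (SE 0.17), and EST1 (−0.65, SE 0.14) and YKU80 (−0.63, SE 0.20) were lower. Among the splicing factors read, PRP3, a U4/U6 protein, was higher at 1.45 (SE 0.13) and PRP40, a U1 protein, lower at −0.50 (SE 0.14). The U1 list had 2 of 3 genes lower, the list of U4, U5 and U6 proteins 2 of 4 lower and 1 higher, and the 2 U2 genes read had a median of −0.21. Of the 10 processing and transport genes read, 4 were lower and 1 higher. MEX67, carried on a plasmid in the mutant, was higher in mutant total RNA by 2.03 (SE 0.12).

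The 9 RNAs varied together over the 12 libraries. Pearson's r of log2 CPM ran from 0.79 to 0.98 over the 36 pairs, with a median of 0.94. U5 with U6 was the lowest pair and NME1 with RPR1 the highest, and all pairs share the difference between fractions. With the group means taken off, r ran from −0.46 to 0.86 with a median of 0.57.

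Among 2365 mRNAs read by the rule of the partner genes, those with the pattern most like each RNA were named by r over the 12 libraries. NAT3 was among the 3 most alike for TLC1 (r = 0.99), U1 (0.98), U4 (0.97) and U2 (0.96). MSP1 was among them for U5 (0.98) and SCR1 (0.96). For U6 the most alike was TFC8 at 0.91. All points share library and depth, and the values are a description.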

How the data were processed

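Libraries were prepared with a TruSeq kit and sequenced as 50-base single reads. The authors demultiplexed them with bcl2fastq 2.17.1.14, aligned them with STAR 2.5.2a to sacCer3 allowing 2 mismatches, and counted them per annotated feature with featureCounts 1.5.0-p1. Strand and overlap settings of the counting are not given in the sources used here. The deposited values are raw counts per feature and library, and no values were normalized before deposit. The labels call the kit non-stranded, whereas the counts lay mainly on the feature opposite to each RNA, and how the strand entered the counts was not tested.

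Each RNA was read from the opposite-strand feature with the largest coverage of at least 0.5 of its length. All 10 RNAs have the same ends in RefSeq. Differences were tested on the counts with edgeR 4.0.16 (quasi-likelihood F test, TMM factors) in R 4.3.3, over features whose count averaged above 40 across the fitted libraries, and p-values were adjusted by Benjamini-Hochberg over all of them at 0.05. The SE of a log2 fold change is its size divided by the square root of F. Pairwise comparisons used 6 libraries and the change of the ratio the interaction of strain and fraction in all 12. The code was tested on simulated data. DESeq2 1.42.0, other scalings, other filters, other readings and leaving out each library were tried. Same-numbered libraries deviated together in the wild-type fractions (r = 0.25, 0.39 and 0.12, all above a minimum of 0.1). A differently numbered pair, wild-type cytoplasm 1 with total 3, also passed it at 0.105, and the others were negative. In each other comparison at least 1 of the 3 same-numbered pairs was below the minimum. In the mutant fractions the highest r, 0.45, was that of cytoplasm 3 with total 2. By the study's methods, total lysate and cytoplasm were taken from the same shifted culture, so same-numbered libraries of a strain may share one. The main tests of the fractions were unpaired, and the fit with a replicate block is given below.

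The RNAs, the gene lists and the tests were chosen with earlier results of these data known. The text names every RNA of the rule, up to 4 partner genes per list with the smallest p-values, and examples from the 3 mRNAs most alike, of which some are not reported here.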

Additional observations from a re-analysis of the deposited data

How the results depend on the processing

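In both strains all 9 RNAs were lower in cytoplasm than in total RNA under every alternative filter, with DESeq2, with library totals, with TMM factors from protein-coding features, with the replicate block, in the fit of all 12 libraries and without any 1 library (9 called each time). Scaled to mitochondrial transcripts, 4 were called in the wild-type and 4 in the mutant. The median of all features then moved to 1.15 and 1.60. Other readings give fewer RNAs, by construction: the own feature called 3 of 4 tested in the wild-type, all lower, and 4 of 6 in the mutant, 3 lower and NME1 higher, and a coverage of at least 0.8 called 4 of 4 in each. A second opposite-strand feature, chosen after seeing the data, called 4 of 4 in each.

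The strain comparisons depended more on the settings. In the cytoplasm 4 RNAs were called, but 2 others with library totals, 1 of 4 at the stricter coverage, 2 of 4 with the second feature, and 3 to 5 without 1 library. In total RNA 1 was called, but 2 with library totals, 7 (not RPR1) with mitochondrial scaling, 3 of 6 with own features and 0 of 4 at the stricter coverage. For the change of the ratio 0 were called, but 1 (U4) with TMM factors from protein-coding features and 1 (U4) with DESeq2, and 0 to 1 without 1 library.

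Some of the values that changed sign lay near 0, and others, as with own features and mitochondrial scaling, lay far from it. Library totals gave in total RNA U2 0.072 and U5 0.18, in cytoplasm NME1 0.38 and U5 0.33, and for the ratio SCR1 0.22 and U5 0.14. TMM factors from protein-coding features gave in total RNA U4 −0.077 and U6 −0.0025, and in cytoplasm RPR1 −0.00050 and SCR1 −0.18. A mean count above 10 gave in total RNA U4 −0.061 and U6 −0.00036, and no filter gave U4 −0.10 and U6 −0.036 there and SCR1 −0.017 in cytoplasm. Mitochondrial scaling gave U4 0.18 between the wild-type fractions and SCR1 0.051 between those of the mutant. Between the total libraries it gave NME1 −0.63, RPR1 −0.19, SCR1 −0.72, U4 −0.90 and U6 −0.87. Between the cytoplasms it gave RPR1 −0.25 and SCR1 −0.43, and for the ratio U2 0.055, SCR1 0.29 and U5 0.46. Own features gave TLC1 0.48 in the wild-type fractions, NME1 0.91 and TLC1 0.31 in the mutant fractions, and TLC1 0.72 in total RNA. In cytoplasm they gave NME1 2.67, TLC1 0.61, U1 0.081 and SCR1 −0.015, and for the ratio NME1 0.67, RPR1 0.64 and U1 0.34. Without 1 library, total RNA gave U2 −0.39 to 0.095, U4 −0.13 to 0.18, U6 −0.27 to 0.60 and U5 −0.17 to 0.15. The cytoplasm gave NME1 −0.34 to 0.033 and U5 −0.62 to 0.055, and the ratio SCR1 −0.37 to 0.065 and U5 −0.54 to 0.12. The cause of these changes was not tested.

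With the replicate block, U6 was called lower in mutant cytoplasm (−0.91, adjusted p = 0.045, edgeR) and stood at −0.13 between the total libraries. The block changed no other call. Between the cytoplasms r was 0.094, 0.27 and 0.18 for the 3 same-numbered pairs. There 1 pair missed the minimum of 0.1, and the numbers were not taken as pairing the samples of the strains. Between the totals r was 0.031 to 0.057, and in the mutant fractions 0.38, −0.35 and −0.19. The U6 reading, with 17 to 425 counts, limits what can be said of U6.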
